A study of Mus musculus with 8 samples.

Results

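Neural stem cell markers were represented by 9 of the 27179 genes in the deposited count table: Nes, Vim, Prom1, Msi1, Msi2, Hopx, Zfp36l1, Ptprz1 and Tfap2c. They were chosen by name, through their Entrez gene identifiers, and all 9 have a row in the table. The RNA came from neurospheres, floating clusters of dividing neural stem and progenitor cells, each grown from 1 C57BL/6 mouse fetus at E14.5 and kept in proliferation medium. In 4 fetuses Kat7 was deleted (Kat7 lox/lox, NesCre T/+), and 4 fetuses were Kat7 intact (Kat7 +/+, NesCre T/+), so the Cre recombinase under Nestin control was carried by both genotypes. The cells that lose Kat7 in this model are those in which the Nestin-driven Cre has acted, and Nestin is itself one of the marker genes. Each genotype came from 3 litters and no litter held both, so genotypes were compared between litters and never within one. A litter gave intact replicates 1 and 2, and another gave deleted replicates 3 and 4.

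Neural stem cells of the fetal brain are radial glia, elongated cells that line the ventricle and give rise to neurons and later to glia. They are recognised by intermediate filaments such as nestin and vimentin, by surface proteins of the apical membrane, and by RNA-binding proteins that hold back differentiation. No single marker defines the state, since astrocytes and other glia share several of them. KAT7, also called HBO1, is a histone acetyltransferase of the MYST family.

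The libraries held 10687817 to 22444359 counts. Kat7 itself had 1204 to 2111 reads across intact libraries, against 416, 4, 253 and 1 reads for deleted replicates 1 to 4. Scaled, the deleted libraries stood at 31.4%, 0.437%, 16.5% and 0.104% of the intact mean, so Kat7 transcript remained in replicates 1 and 3. The genotypes did not overlap for Kat7, but with this spread it did not pass the test (log2 fold change -3.02 ± 1.10, edgeR adjusted p = 0.128). The mitochondrial genome took 18.95% to 23.5% of the counts across intact libraries, against 29.9%, 18.95%, 17.1% and 34.4% for deleted replicates 1 to 4. Other genes of the stem cell label were present: intact means were 221 ± 17.99 CPM for Sox2, 1741 ± 244 for Fabp7, 818 ± 321 for Slc1a3 and 23.3 ± 2.22 for Pax6 (SD, n = 4). CPM, the count scaled to a common library size, is corrected here by TMM, a method for differences in RNA composition between libraries.

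The marker genes spanned almost the whole range of expression in Kat7 intact cultures. Levels of different genes were compared per length, as RPKM, which is CPM per kilobase of gene length. Vim, which encodes the intermediate filament protein vimentin, stood highest at 1027 ± 114 RPKM, above 99.9% of the 13498 genes tested. Nes, which encodes the intermediate filament nestin, followed at 258 ± 42.1 RPKM. Ptprz1, a receptor tyrosine phosphatase that binds pleiotrophin, stood at 72.3 ± 8.80 RPKM and the RNA-binding protein gene Msi2 at 49.5 ± 4.04. These 4 formed a ladder in which no intact library of one gene overlapped the next. Hopx, an atypical homeodomain protein, followed at 16.5 ± 6.55 RPKM, Zfp36l1 at 10.2 ± 1.27 and Msi1 at 9.46 ± 0.709, and the ranges of these neighbours in the order overlapped. All 3 means lay above the median of the tested genes, 8.001 RPKM. The length used for Msi1, 1551 bases, is shorter than its longest annotated 3′ UTR, 1895 bases, so its level beside other genes is uncertain. Prom1, the pentaspan membrane protein prominin or CD133, was barely present at 0.153 ± 0.0506 RPKM. The AP-2 transcription factor gene Tfap2c had 4 reads in the intact and 2 in the deleted libraries together. The order of the 9 means was the same in Kat7 deleted libraries.

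**Figure D1:**
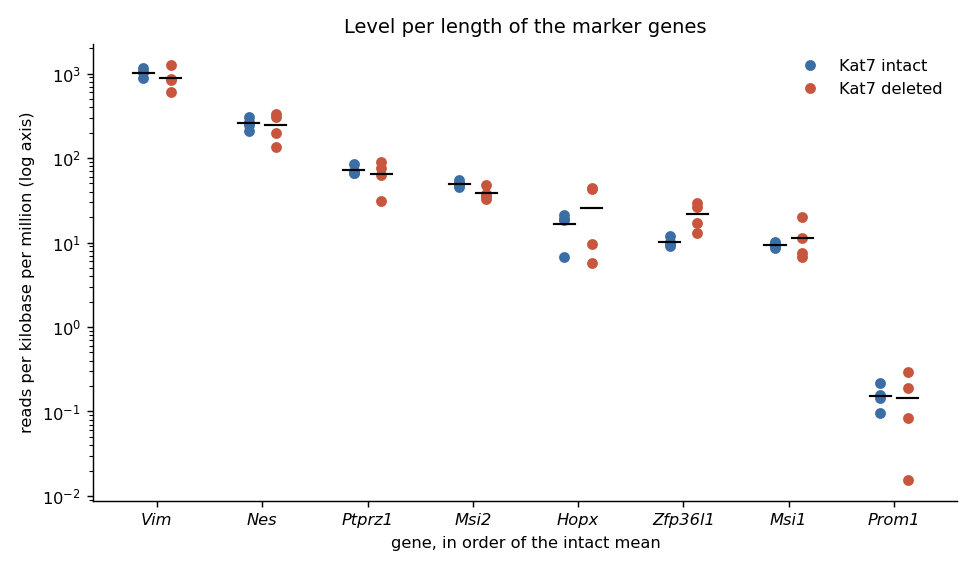
Level per length of 8 marker genes as RPKM, on a log axis, ordered by the intact mean; points are libraries (4 per genotype) and bars are means. Vim, Nes, Ptprz1 and Msi2 step down without overlap among intact libraries, from 1027 to 49.5, Prom1 lies far below the rest at 0.153, and Tfap2c is not drawn because 4 of its 8 libraries had 0 reads.

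The comparison of deleted with intact cultures asks how these markers stand in neural stem and progenitor cells of the Kat7 deleted genotype. Of the 9 genes, 8 passed the filter on low counts, all but Tfap2c. Zfp36l1 rose, 0 genes fell, and the other 7 tested genes did not pass the test in either direction. The test was edgeR's quasi-likelihood F test with Benjamini-Hochberg adjustment over all tested genes and a threshold of 0.05. By that rule 7.9% of all tested genes were called, 5.1% higher and 2.8% lower, which was 688 and 378 genes. Scaling by total counts alone gave 309 higher and 366 lower. Without adjustment, p was under 0.05 for 1 marker gene with a higher and 1 with a lower level, against 26.2% of all tested genes in either direction, and DESeq2 called 1 higher and 0 lower, against 16.3%. The median log2 fold change of the 8 genes was -0.09, beside 0.05 over all tested genes, and the median of its absolute value was 0.23, beside 0.30. Fitted values lay above 0 for 3 genes and below 0 for 5.

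**Figure D2:**
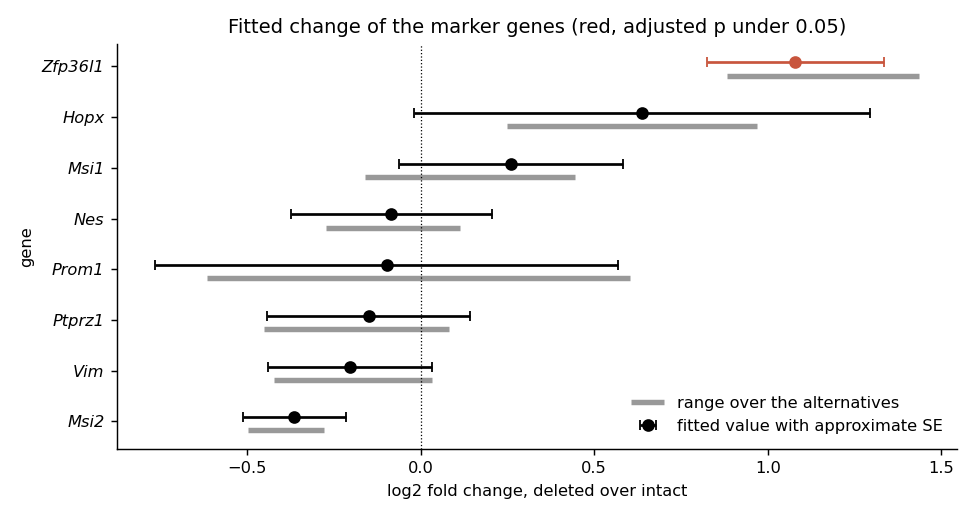
Log2 fold change of the 8 tested marker genes, deleted over intact; points are fitted values with approximate standard errors, grey bars the range over the alternative analyses, and red marks an adjusted p under 0.05. Zfp36l1 stands alone on the right at 1.08, and the grey bars of Nes, Vim, Prom1, Msi1 and Ptprz1 cross 0.

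Zfp36l1 encodes a zinc-finger protein that binds AU-rich elements in messenger RNAs and recruits the deadenylation machinery, which leads to their decay. Intact libraries 1 to 4 held 35.8, 27.3, 28.3 and 30.3 CPM, and deleted libraries 1 to 4 held 38.5, 78.2, 88.8 and 51.4 CPM. The genotypes did not overlap, with every deleted library above the highest intact one. Over all tested genes 19.9% were apart in this way, 10.7% with the deleted libraries above and 9.21% with them below. The deleted library nearest to the intact range was replicate 1, at 127% of the intact mean, and the farthest was replicate 3, at 292%. Means were 30.4 ± 3.80 and 64.2 ± 23.3 CPM (SD, n = 4), a log2 fold change of 1.08 ± 0.25 (approximate SE) or 2.11-fold, with an edgeR adjusted p of 0.0393. The littermates in the deleted group, replicates 3 and 4, differed 1.73-fold. Deleted replicates 1 and 4, with the lower Zfp36l1 levels, had the high mitochondrial shares. Without this pair the log2 fold change was 1.44 (adjusted p = 0.00572), and with the share as a covariate it was 1.22 (adjusted p = 0.0203). Deleted replicate 1, with the most Kat7 reads of the deleted libraries, had the lowest Zfp36l1 level among them, and replicate 3, with the next most, had the highest.

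The Zfp36l1 call was narrow. It stood in 14 of 23 alternatives, with adjusted p from 0.00228 to 0.126. It was lost, among others, with litter as a random block (0.112), with littermates summed (0.109), with scaling by total counts alone (0.0937), without any 1 of intact replicates 1 to 4 (0.0868, 0.126, 0.114 and 0.118) and without deleted replicate 3 (0.0723). The fitted direction was upward in all 23, from 0.88 to 1.44. The annotation places a lncRNA gene on the opposite strand, Gm26669, over exon sequence of Zfp36l1, and the strand setting of the counting is not given in the sources used here, so reads of the pair cannot be told apart.

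Zfp36l1 lies on the minus strand of chromosome 12 (chr12:80107760-80113013 in GRCm38). Its promoter window is shown because it was the gene called, beside those of Vim and Nes, the most abundant members. Each run holds 250 bases before and 50 bases after the annotated start, 5′ to 3′ on the gene's strand, from RefSeq on GRCm38.p6. The windows are chr12:80112964-80113263 (minus strand), chr2:13574061-13574360 (plus) and chr3:87970843-87971142 (plus). Capitals mark the letters TATAAA of a TATA box, the letters CCAAT of a box named after them, and the letters GGGCGG of a GC box, each on either strand. The letters CACGTG of an E-box were also searched for, and none of these windows holds them.
Zfp36l1: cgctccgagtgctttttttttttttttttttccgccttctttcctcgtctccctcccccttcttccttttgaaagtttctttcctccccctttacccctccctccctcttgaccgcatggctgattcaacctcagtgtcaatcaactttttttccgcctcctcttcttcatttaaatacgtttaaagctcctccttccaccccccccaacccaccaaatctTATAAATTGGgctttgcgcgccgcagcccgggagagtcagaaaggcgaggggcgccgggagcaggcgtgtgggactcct
Vim: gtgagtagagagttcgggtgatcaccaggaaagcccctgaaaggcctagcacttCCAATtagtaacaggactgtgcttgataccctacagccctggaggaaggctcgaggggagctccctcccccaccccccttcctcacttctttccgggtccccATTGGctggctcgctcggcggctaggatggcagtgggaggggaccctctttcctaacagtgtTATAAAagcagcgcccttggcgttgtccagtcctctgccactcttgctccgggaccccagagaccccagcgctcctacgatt
Nes: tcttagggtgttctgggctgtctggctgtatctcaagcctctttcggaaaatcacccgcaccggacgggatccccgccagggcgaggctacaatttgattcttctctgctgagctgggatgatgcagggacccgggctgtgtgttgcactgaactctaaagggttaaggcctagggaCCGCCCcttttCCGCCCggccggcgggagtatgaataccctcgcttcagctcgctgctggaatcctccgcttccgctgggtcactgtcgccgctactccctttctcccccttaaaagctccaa
The Zfp36l1 window has a TATA box that begins 29 bases before the start and runs by 1 base into a CCAAT box on the opposite strand. The Vim window has a TATA box 32 bases before the start and CCAAT boxes 196 and 94 bases before it. Nes has neither, and has GC boxes on the opposite strand 73 and 62 bases before its start. Over 32544 such mouse windows, 13.6% hold this TATA box, 37.4% the CCAAT box, 35.9% the GC box and 7.17% the E-box. Each sequence was counted once and a chromosome was left out, so this background is not every such window. These matches describe the letters and say nothing of what binds there.

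The AU-rich nonamer TTATTTATT, the preferred site of this protein family, was searched for in the 3′ UTR of the marker genes because one of them encodes such a protein. It occurred in 2 of the 9, once each in Zfp36l1 itself and in Msi1, and in 7.59% of 21094 mouse genes with an annotated 3′ UTR (longest in GENCODE M21, GRCm38). Each site is shown with 10 bases on either side and the nonamer in capitals.
Zfp36l1 site: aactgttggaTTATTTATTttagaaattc
Msi1 site: ctggtcgcttTTATTTATTtttggattag
The first lies at base 1404 of a 3′ UTR of 1835 bases and the second at base 239 of 1895. Both are longer than the median of 955 bases over the 21094 genes. A longer 3′ UTR leaves more room for a match, so the shares are not like for like. Of its family relatives, neither Zfp36l2 nor Zfp36 passed the test. The mean of Zfp36l2 was 30.4 ± 7.35 CPM without and 41.7 ± 14.2 CPM with the deletion (adjusted p = 0.332 by edgeR). Per length, Zfp36l1 stood at 1.04 to 1.42 times Zfp36l2 across intact libraries, against 1.11, 4.23, 2.11 and 1.13 times for deleted replicates 1 to 4, so the ratio left the intact range in deleted replicates 2 and 3.

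**Figure D3:**
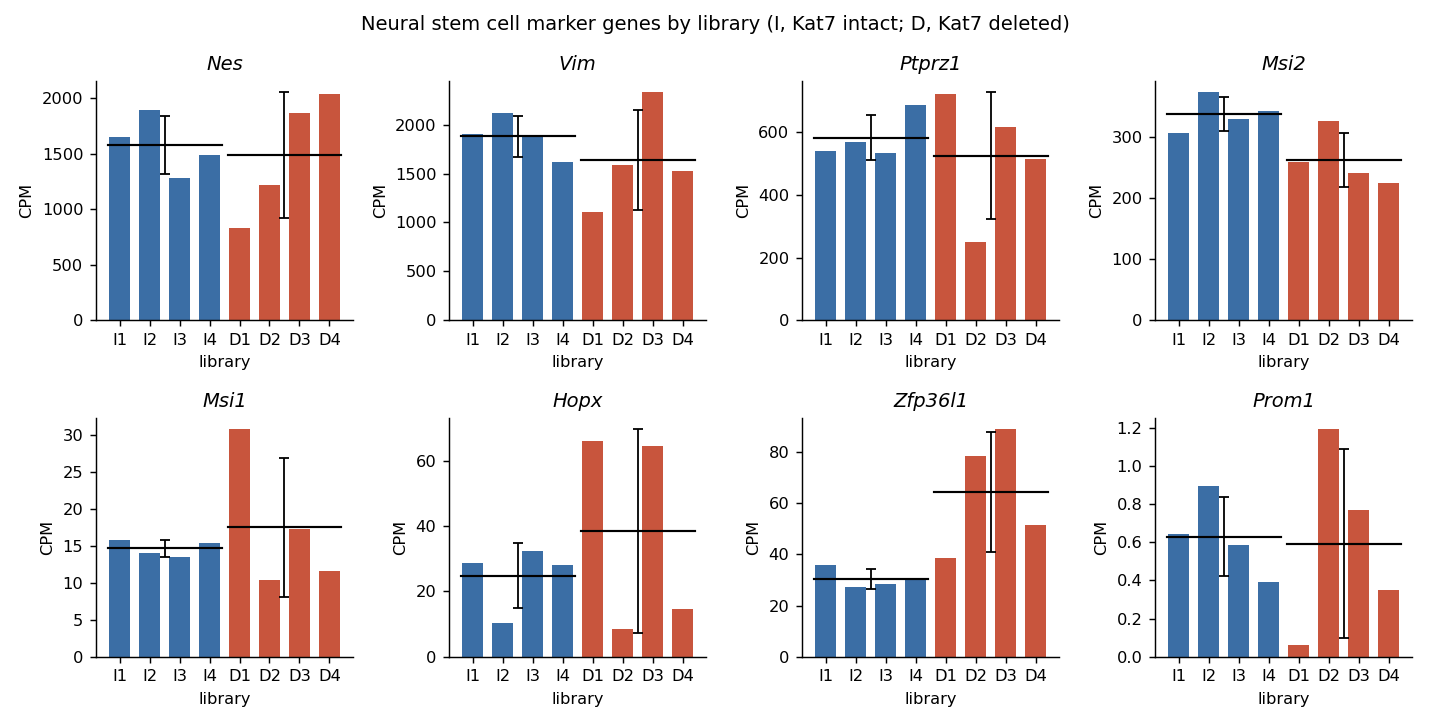
Levels of 8 marker genes in each library in CPM, every axis from 0; blue bars are Kat7 intact (I1 to I4), red bars Kat7 deleted (D1 to D4), black lines genotype means and whiskers 1 SD. For Zfp36l1 the lowest deleted library, 38.5, stands above the highest intact one, 35.8, and the other genes overlap between genotypes.

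The intermediate filament genes did not pass the test. Nes (chr3:87971093-87980451, GRCm38) stood at 1649, 1894, 1284 and 1490 CPM in intact replicates 1 to 4, while deleted replicates 1 to 4 had 831, 1217, 1869 and 2040 CPM. The deleted libraries spread to both sides of the intact range, with replicates 1 and 2 below it and replicate 4 above. Its log2 fold change was -0.08 ± 0.29 (edgeR adjusted p = 0.879) and turned to 0.11 without deleted replicate 1. Vim (chr2:13574311-13582826) stood at 1908, 2126, 1887 and 1616 CPM in intact replicates 1 to 4, while deleted replicates 1 to 4 had 1105, 1585, 2331 and 1524 CPM. Deleted replicate 1 was again lowest, replicates 2 and 4 also lay below the intact range, and replicate 3 lay above it. The log2 fold change of Vim was -0.20 ± 0.24 (adjusted p = 0.619). Per length, Nes stood at 20.4% to 27.6% of Vim across intact libraries, against 22.5%, 23.0%, 24.0% and 40.1% for deleted replicates 1 to 4, so their proportion left the intact range in replicate 4.

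The Musashi proteins are RNA-binding regulators of translation that favour the undifferentiated state. Msi1 (chr5:115359059-115455698) stood at 15.8, 13.99, 13.5 and 15.4 CPM in intact replicates 1 to 4, the smallest SD of log2 CPM of the 8 genes. Deleted replicates 1 to 4 had 30.8, 10.4, 17.4 and 11.6 CPM. Deleted replicate 1 was at 210% of the intact mean, while replicates 2 and 4 lay below every intact library. The log2 fold change of 0.26 ± 0.32 (edgeR adjusted p = 0.644) turned to -0.16 without deleted replicate 1. Msi2 (chr11:88339382-88718306) stood at 306, 372, 329 and 342 CPM in intact replicates 1 to 4, while deleted replicates 1 to 4 had 259, 325, 240 and 224 CPM. Here 3 of the 4 deleted libraries were below the lowest intact one, and replicate 2 lay among the intact libraries. Its mean went from 337 ± 27.5 to 262 ± 44.5 CPM, a log2 fold change of -0.36 ± 0.15 with an unadjusted p of 0.0379 and an adjusted p of 0.164. Without deleted replicate 2 it passed, at -0.49 with an adjusted p of 0.0341. The direction was downward in all 23 alternatives, from -0.50 to -0.28, and this was the only one of them in which Msi2 was called. Per length, Msi1 stood at 16.5% to 22.7% of Msi2 across intact libraries, against 52.3%, 14.01%, 31.8% and 22.7% for deleted replicates 1 to 4. The length used for Msi1 is shorter than its longest annotated 3′ UTR, so these percentages serve to compare libraries, not the genes.

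The surface proteins overlapped between genotypes. Ptprz1 (chr6:22875315-23052916) stood at 542, 569, 535 and 688 CPM in intact replicates 1 to 4, while deleted replicates 1 to 4 had 722, 250, 617 and 514 CPM. Deleted replicate 2, at 42.9% of the intact mean, stood apart from the other 7 libraries. The log2 fold change was -0.15 ± 0.29 (edgeR adjusted p = 0.781) and 0.08 without that library. Prom1 (chr5:43993621-44102047) had 9, 15, 12 and 9 reads in intact replicates 1 to 4, while deleted replicates 1 to 4 had 1, 13, 14 and 4 reads. Counting error alone was wide at this depth: the exact 95% Poisson interval of the 1 read in deleted replicate 1 reached 5.57 reads, and that of the intact libraries with 9 reads began at 4.12. Its log2 fold change was -0.10 ± 0.67 (adjusted p = 0.943), and the annotation places another gene, Gm16401, over part of its exon sequence on the opposite strand.

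Of the 8 tested genes, Hopx (chr5:77086986-77115123) had the largest SD of log2 CPM in both genotypes. HOPX lacks DNA binding of its own and is known as a marker of outer radial glia in the human cortex and of adult stem cells. Intact replicates 1 to 4 held 28.6, 10.3, 32.4 and 28.1 CPM, and deleted replicates 1 to 4 held 66.2, 8.63, 64.7 and 14.7 CPM. Deleted replicates 1 and 3 lay above every intact library, at 266% and 260% of the intact mean, and replicate 2 lay below every one. Littermates differed too, since deleted replicates 3 and 4 differed 4.37-fold and intact replicates 1 and 2 differed 2.76-fold. The log2 fold change was 0.64 ± 0.66 (edgeR adjusted p = 0.572), 0.97 without deleted replicate 2 and 0.25 without deleted replicate 1. An antisense gene, Hopxos, overlaps its exon sequence. Tfap2c (chr2:172545678-172558622) had 1, 0, 3 and 0 reads in intact replicates 1 to 4, while deleted replicates 1 to 4 had 1, 0, 1 and 0 reads, and the gene was not tested. By a one-sided 95% Poisson limit a count of 0 allows up to about 3 reads, or 0.131 to 0.275 CPM depending on the library. The wider exact interval used for Prom1 reaches 3.69 reads for a count of 0. A level below these limits is not detectable here.

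**Figure D4:**
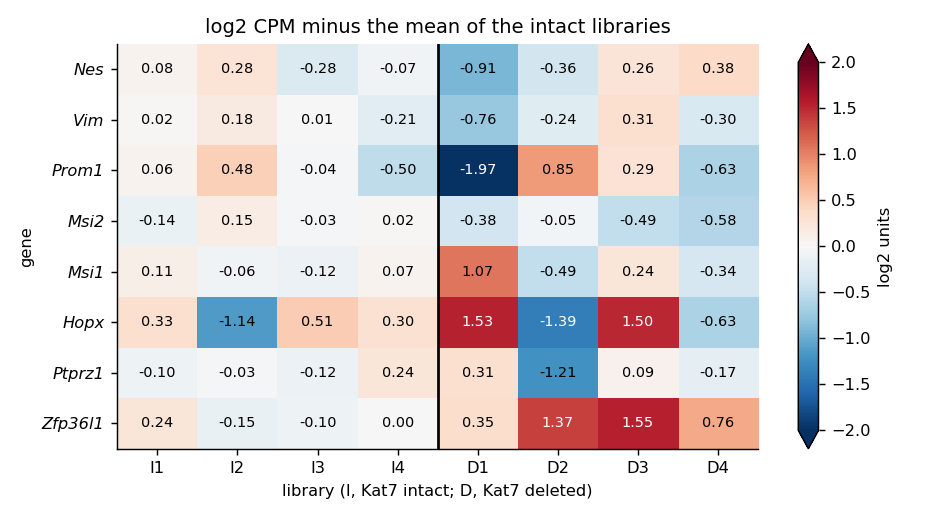
Log2 CPM of each tested marker gene minus its mean over intact libraries, by library (I1 to I4 intact, D1 to D4 deleted), with the value in each cell and the colour scale in log2 units. Intact cells stay within 0.51 of 0 apart from Hopx in I2 (-1.14), while D1 is low for Nes (-0.91) and high for Msi1 (1.07) and Hopx (1.53), and D2 is low for Ptprz1 (-1.21) and high for Zfp36l1 (1.37).

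Deleted cultures differed more among themselves than intact cultures did. The SD of log2 CPM was larger within the deleted genotype for 8 of the 8 tested genes, by 1.95 to 6.57 times. The same held for 86.6% of all tested genes, where the median ratio was 2.27, against 2.88 here. The highest and the lowest of the 8 libraries were both deleted ones for 6 marker genes, Nes, Vim, Prom1, Msi1, Hopx and Ptprz1, and for 37.0% of all tested genes. Deleted replicate 1 was the lowest library for Nes, Vim and Prom1 and the highest for Msi1, Hopx and Ptprz1. Deleted replicate 2 was the lowest for Msi1, Hopx and Ptprz1. In bulk RNA, fewer cells of a type and less RNA per cell cannot be told apart.

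Markers of other cell types also differed among these libraries. The summed level of 10 astrocyte markers was 369 to 592 CPM across intact libraries, against 5338, 590, 2001 and 1686 CPM for deleted replicates 1 to 4. It was highest in deleted replicate 1, the library with the lowest Nes and Vim and the highest Msi1, Hopx and Ptprz1. Low Nes and Vim did not go with this sum in the other deleted libraries. Replicate 3 had the highest Vim and replicate 4 the highest Nes. In replicate 2, with Nes and Vim below their intact ranges, the sum lay within the intact range. Of the 10, all tested, 5 were called higher and 0 lower by edgeR. DESeq2 called 5 and 0, and 7 and 0 passed an unadjusted p under 0.05. Over all tested genes the shares in either direction were 7.9% by edgeR, 16.3% by DESeq2 and 26.2% before adjustment. Aqp4, the astrocytic water channel, rose by 4.24 ± 0.47 on the log2 scale (adjusted p = 0.00483), and Gfap, the astrocytic filament gene, named here after its values were seen, stood at 0.174 to 1.12 CPM in intact replicates 1 to 4, while deleted replicates 1 to 4 had 147, 1.38, 8.07 and 1.91 CPM. Aldoc rose by 3.34 ± 0.75, Apoe by 1.90 ± 0.31 and Fgfr3 by 1.58 ± 0.26 (adjusted p = 0.0358, 0.0134 and 0.0128). The Aldoc call stood in 11 alternatives and was lost in 12, among them without any 1 intact library and with littermates summed (0.128). The Apoe and Fgfr3 calls were lost in 3 alternatives each. Mesenchymal markers summed to 3.13 to 4.43 CPM across intact libraries, against 5.90, 783, 22.7 and 242 CPM for deleted replicates 1 to 4, so they were highest in the library with the lowest Ptprz1. Of the 10, 3 were tested and 2 were called higher, the smooth muscle actin gene Acta2 (6.67 ± 1.45, adjusted p = 0.0322) and the matrix gene Thbs2 (5.68 ± 1.24, 0.0329). Both calls ended without any 1 intact library or without deleted replicate 4 (adjusted p up to 0.110 and 0.109). They were weakest with litter as a random block (0.435 for Acta2 and 0.370 for Thbs2) and by limma-voom without it (0.300 and 0.242). Of the called genes named from these lists of other cell types, Aqp4 alone kept its call in every alternative, and all kept their direction. The part of either cell type in the marker gene values was not tested.

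Neuron markers summed to 1028 to 1074 CPM in intact and 787 to 1222 CPM in deleted libraries, with 0 of 7 tested called higher and 2 lower, Neurod1 (-3.32 ± 0.52, edgeR adjusted p = 0.0104) and Elavl3 (-2.27 ± 0.36, 0.0116). Oligodendrocyte markers summed to 1367 to 1728 and 450 to 1696 CPM, with 0 of 7 higher and 2 lower, Ugt8a (-4.17 ± 0.72, 0.015) and Gpr17 (-3.21 ± 0.67, 0.0278). The Gpr17 call stood in 10 alternatives and was lost in 12, among them without any 1 intact library. DESeq2 also called 0 higher in either list, and 3 neuron and 2 oligodendrocyte markers lower. At an unadjusted p under 0.05, 1 neuron and 0 oligodendrocyte markers were higher, and 3 and 2 were lower. Over all tested genes edgeR called 5.1% higher and 2.8% lower. The shares in either direction were 16.3% by DESeq2 and 26.2% before adjustment. Of 5 tested intermediate progenitor markers the receptor gene Sstr2 was called lower (-1.81 ± 0.42, 0.0383), their sums being 61.5 to 84.6 and 48.8 to 192 CPM. The list as a whole had a median log2 fold change of 0.58, and 2 markers were higher and 1 lower before adjustment. The Sstr2 call stood in 8 of 22 alternatives, and ended with littermates summed (0.1255) and without any 1 intact library. Foxj1 was called higher (1.21 ± 0.23, 0.0214) among 3 tested ependymal markers, with sums of 11.3 to 14.1 and 20.2 to 36.5 CPM. The Foxj1 call ended without any 1 intact library, with litter as a random block and with littermates summed (edgeR adjusted p = 0.113). Markers of cells from outside the neural lineage were scarce apart from the mesenchymal ones. Endothelial markers summed to 3.27 to 6.94 CPM in intact and 1.65 to 15.7 CPM in deleted libraries, with Kdr called lower (-3.45 ± 0.55, 0.0116) among 2 tested. Microglial markers summed to 2.74 to 3.65 and 0.459 to 2.22 CPM, with 1 tested, P2ry12 (-1.87 ± 0.86, 0.205). Red cell markers reached at most 1.22 CPM, with Hba-a1, Hbb-bs and Hbb-y at 0 in all 8 libraries and Alas2 the only one tested (0.48 ± 0.53, 0.606).

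**Figure D5:**
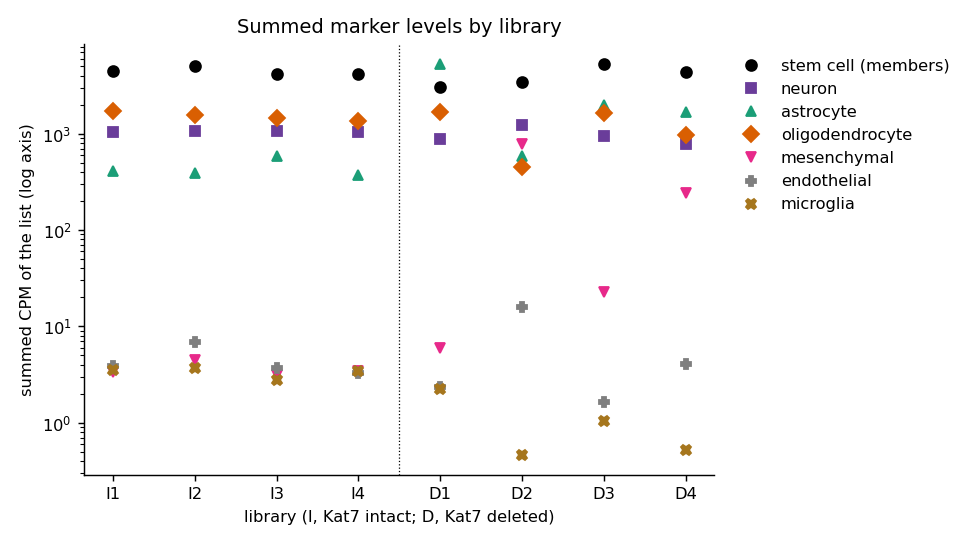
Summed CPM of the marker genes and of 6 lists of other cell types in each library, on a log axis (I1 to I4 Kat7 intact, D1 to D4 Kat7 deleted). The sum of the stem cell marker genes, most of it Nes and Vim, runs from 4111 to 5013 in intact and from 3053 to 5228 in deleted libraries. The astrocyte sum reaches 5338 in D1 and the mesenchymal sum 783 in D2 and 242 in D4.

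Other stem cell genes gave few calls, as did genes in general. Of 24 further radial glia and stem cell genes, 23 were tested, 0 were called higher and 1 lower. DESeq2 called 2 and 3, and 3 and 3 passed an unadjusted p under 0.05. Over all tested genes the shares were 7.9% by edgeR, 16.3% by DESeq2 and 26.2% before adjustment. The median log2 fold change was 0.11. The gene called was Cdh2, N-cadherin of the adherens junctions, which fell from 201 ± 15.2 to 122 ± 25.3 CPM, by 0.72 ± 0.16 on the log2 scale (adjusted p = 0.0351 by edgeR). Cdh2 lost its call without any 1 intact library, without deleted replicate 3 or 4, with litter as a random block and with littermates summed, with adjusted p up to 0.146. Of 12 genes described for outer radial glia, mostly in the human cortex, 10 were tested. Il6st, the shared receptor subunit of the interleukin 6 family, rose by 1.19 ± 0.28 (0.0388, up to 0.119 without any 1 intact library), and Sfrp1, a secreted Wnt antagonist, fell by 3.78 ± 0.43 on the log2 scale (0.00485). The median of that list was -0.23.

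Relatives and partners of the marker genes were also measured. Among 14 other intermediate filament genes 7 were tested, and Lmna, the A-type nuclear lamin, rose from 32.5 ± 6.77 to 80.6 ± 22.7 CPM, by 1.31 ± 0.25 on the log2 scale (adjusted p = 0.0195 by edgeR). Its call ended without intact replicate 2, 3 or 4 (up to 0.0799) and with littermates summed (0.0891). Of 16 RNA-binding relatives and deadenylation partners edgeR called 0 of 16 tested, while DESeq2 called 0 higher and 2 lower, and 0 and 3 passed an unadjusted p under 0.05. Over all tested genes the shares in either direction were 7.9% by edgeR, 16.3% by DESeq2 and 26.2% before adjustment. The most abundant of the RNA-binding list, Hnrnpab, stood at 648 ± 17.3 and 448 ± 118 CPM (adjusted p = 0.124). Of 14 ligands, partners and relatives of Ptprz1, 12 were tested: Nrcam, a neural adhesion molecule, rose by 0.98 ± 0.17 (0.0156, up to 0.0702 without any 1 intact library). Alk, a receptor tyrosine kinase, fell from 2.69 ± 1.32 to 0.147 ± 0.0770 CPM (0.00801), with 1 to 3 reads in each deleted library. Of 10 apical membrane and junction genes related to the setting of Prom1, 7 were tested. Tjp1, the tight junction protein ZO-1, rose by 0.80 ± 0.11 (0.0086) with the genotypes apart, a call that ended with littermates summed (0.0593) and with total counts alone (0.0557). Prkcz, an atypical protein kinase C, fell by 2.65 ± 0.47 on the log2 scale (0.0161, up to 0.0645 without any 1 intact library). The 4 relatives of Tfap2c were all too low to test, with Tfap2b at 0 in all 8 libraries and Tfap2a, the most abundant, at 1 read in the intact and 9 reads in the deleted libraries together.

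The genes whose levels followed each marker gene most closely were ranked by Pearson's r of log2 CPM over the 8 libraries, as a description. These libraries fall into genotypes and litters and include the outlying deleted cultures, so r describes this set alone. Zfp36l1 was followed by Vcl, which encodes the adhesion protein vinculin and was itself called higher (r = 0.991, edgeR adjusted p = 0.0452), C2cd3 (0.978) and Sec31a (0.968). Msi1 was followed by Phlpp1 (0.988), Usp11 (0.980) and Phka1 (0.978), and Msi2 by Zfp266 (0.990), Rnf20 (0.987) and Hsf2 (0.986). Nckap5 (0.988), Ncdn (0.984) and Slc38a1 (0.980) followed Ptprz1. For Hopx the nearest were Zfp599 (0.974), with an intact mean of only 2.64 CPM, Sash1 (0.963) and Gpd1 (0.955). Sox4 (0.957), Oxsr1 (0.948) and Snora23 (0.944, intact mean 1.86 CPM) were nearest to Nes, and Asf1b (0.943), Nde1 (0.943) and Ywhaz (0.932) to Vim. Pxn (0.969), Ranbp3 (0.967) and Thop1 (0.965) were nearest to Prom1, which rests on few reads. Among the marker genes themselves, Hopx went with Msi1 (0.80) and Ptprz1 (0.70), Msi1 with Ptprz1 (0.70), and Vim with Prom1 (0.78) and Nes (0.73), while Msi1 ran against Prom1 (-0.77). For Zfp36l1 the values ran from -0.57 with Msi2 and -0.48 with Ptprz1 to 0.28 with Prom1.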

How the data were processed

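Polyadenylated RNA of 8 neurosphere cultures was read as 100 bp single-end reads, per the labels' protocols. The deposited values are raw counts by Entrez gene, not normalized by the authors, with the gene lengths used here for RPKM. CASAVA 1.8.2, featureCounts and mm10 are named in the submitters' processing notes; the aligner and strand setting are not given in the sources used here. Symbols came from RefSeq (GRCm38.p6, the assembly of mm10): 25275 identifiers matched and 1904 did not.

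Counts were tested with edgeR 4.0.16 (R 4.3.3): filterByExpr with a minimum count of 10, TMM, robust dispersions and a quasi-likelihood F test between genotypes without covariates, over 13498 genes. Standard errors are approximate, the size of the log2 fold change divided by the root of F. The procedure was tested on simulated counts with independent libraries and the same spread in both genotypes. That setting lacks litters and the wider spread of the deleted cultures, so it says nothing of their effect on the test. Log2 CPM uses a prior count of 2. Intervals cover counting error only.

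Alternatives were other scalings and filters, DESeq2 1.42.0, limma 3.58.1 voom fits, litter as a block or summed, the replicate number as a block, the mitochondrial share, and libraries left out. The marker genes and the lists were chosen with earlier results of these data known. Named were the 9 genes, called members of each list (up to 4 by p, or the most abundant) and the 3 genes most correlated with each marker gene.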

Additional observations from a re-analysis of the deposited data

Results flagged for a closer look

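Hopx in intact replicate 2 stood apart from its group. It held 10.3 CPM against 28.1 to 32.4 CPM in the other 3 intact libraries, and its gap to the nearest of them was 0.877 of the group's range on the log2 scale, above Dixon's 95% critical value for 4 samples. Its littermate, intact replicate 1, held 28.6 CPM. Without this library the log2 fold change of Hopx was 0.38 (edgeR adjusted p = 0.805). Of 16 groups examined, 8 genes in 2 genotypes, 1 was picked out, and chance picks out about 1 in 20.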

How the results depend on the processing

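The number of marker genes called higher was 1, Zfp36l1, and it was 0 with scaling by total counts alone, litter as a random block, littermates summed and the replicate block. It ran from 0 to 1 with 1 library left out, as did the number called lower (0 with all libraries). Signs turned for genes that were not called. Nes was at 0.033 by limma-voom with sample weights and ran from -0.27 to 0.11 with 1 library left out. Vim was at 0.033 without the pair of high mitochondrial share. Prom1 was at 0.013 with littermates summed, 0.17 with the mitochondrial share as a covariate and 0.60 without that pair, and ran from -0.62 to 0.30. Msi1 was at -0.10 without the pair and ran from -0.16 to 0.44, and Ptprz1 ran from -0.34 to 0.082. Hopx, Msi2 and Zfp36l1 kept their direction in all 23 alternatives. In 1 alternative, the minimum count of 30, Prom1 was not tested.

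Over all genes, 688 were called higher and 378 lower. The counts were 309 and 366 with total counts alone, which moved the median over all genes from 0.05 to -0.09, and 1311 and 889 by DESeq2. They were 1291 and 992 with sample weights, 232 and 182 with litter as a random block, 106 and 87 with littermates summed, 429 and 245 with the mitochondrial share as a covariate, and 753 and 590 without the pair of high mitochondrial share. With 1 library left out they ran from 102 to 1260 higher and from 86 to 922 lower. With the replicate block 204 were higher and 115 lower. Same-numbered libraries deviated together at r = 0.0961 to 0.331 and 2 of the 4 intact libraries correlated best with their own number, so the numbers were not taken to pair them. Depth limits Prom1 and Tfap2c, and 3 litters a side limit every test.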

Other observations

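Tnc and Ptn, ligands of Ptprz1 named after their values were seen, spread more widely among deleted than among intact cultures. The SD of log2 CPM was larger within the deleted genotype for 86.6% of all tested genes. Tnc, which encodes the matrix protein tenascin C, stood at 863 to 1407 CPM across intact libraries, while deleted replicates 1 to 4 had 88.6, 1100, 795 and 1303 CPM. Ptn, which encodes pleiotrophin, stood at 769 to 1099 CPM across intact libraries, while deleted replicates 1 to 4 had 1974, 465, 979 and 712 CPM, highest and lowest in the same deleted libraries as Ptprz1. Neither passed the edgeR test (adjusted p = 0.643 and 0.817).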
